A study of Mus musculus with 7 samples.

Results

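The genes described here are 40 members of the cAMP and protein kinase A pathway, chosen by gene symbol from the 24047 genes of the deposited count table and given as a list. By role they are 9 adenylyl cyclases, 4 G protein alpha subunits, 2 catalytic and 4 regulatory subunits of protein kinase A, 3 kinase A inhibitors, 15 phosphodiesterases, and 3 genes of the CREB group. They were measured by RNA sequencing in SMB21 cells, a mouse medulloblastoma line grown as neurospheres. The labels give the strain background Ptch1tm1Mps/J, the age as adult and the genotype background as Ptch mutant for every group, so the GFP controls carry the Ptch1 mutation too. Cells were infected with a lentiCRISPR virus, which delivers Cas9 and a guide, and RNA was taken 2 weeks later. The guides were directed at GFP (control, 2 libraries), at Ofd1 (3 libraries) or at Kif3a (2 libraries), all in the same line. Whether edited clones or mixed pools were sequenced is not given in the sources used here. The labels call the replicates biological but tie them to no separate cultures or animals, so p-values measure the spread between these libraries.

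Adenylyl cyclases make cyclic AMP from ATP, the stimulatory subunit Gnas switches them on, and the inhibitory Gnai subunits switch them off. Cyclic AMP binds the regulatory subunits of protein kinase A and frees the catalytic subunits, and phosphodiesterases break cyclic AMP down. One nuclear target of the kinase is Creb1, a transcription factor that induces genes carrying a cyclic AMP response element (CRE). In granule neuron progenitors, the cells from which Hedgehog-driven medulloblastoma arises, kinase A near the base of the primary cilium phosphorylates Gli proteins and restrains the pathway. Primary cilia need both Ofd1, which sits at centrioles and basal bodies, and Kif3a, a subunit of the kinesin-2 motor.

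Library totals ran from 17961767 to 23022701 counts, and 12875 genes held enough counts to be tested. Kif3a RNA was 104 CPM (counts scaled to a common library total, with TMM factors) in both controls and 73.9 and 60.5 CPM in the Kif3a CRISPR libraries, a log2 fold change of -0.63 (SE 0.0929, adjusted p = 0.000854). Ofd1 RNA was 22.6 and 23.2 CPM in the controls and 20.03 to 22.0 CPM in the Ofd1 CRISPR libraries, and this change of -0.12 did not pass the test (adjusted p = 0.398), so RNA level against the controls does not check the Ofd1 label. The Kif3a CRISPR libraries held 31.7 and 29.0 CPM of Ofd1, above the controls by 0.41 (adjusted p = 0.0126), and Ofd1 CRISPR lay below Kif3a CRISPR with a change of -0.53 (adjusted p = 0.0399). The Hedgehog targets Gli1 and Ptch1 fell, with log2 changes of -0.84 and -0.91 in Ofd1 CRISPR and of -0.82 and -1.249 in Kif3a CRISPR. Granule neuron progenitor markers summed to 3960 and 4002 CPM in the controls and to 4099 to 4508 CPM in the edited libraries. Of these 14 markers none was at 0, and 5 rose and 4 fell in each comparison. Over all tested genes, 6.79% rose and 8.09% fell in Ofd1 CRISPR, and 9.19% rose and 10.9% fell in Kif3a CRISPR. One library stood apart: 12 of 16 myeloid markers were highest in GFP control replicate 1, where they summed to 32.3 CPM against 2.96 CPM in replicate 2, 3.44 to 4.88 CPM in Ofd1 CRISPR and 3.37 to 3.67 CPM in Kif3a CRISPR. The myeloid marker Cx3cr1 had no count in any library. Member counts are therefore given below with and without that library.

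Of the 40 members, 34 passed the filter on low counts and were tested. Adcy2 had no count in any library. Of the other 5 left out, Pde1a, Pde4c, Pde8a and Pde8b were near the limit of detection. Pkib had 30 counts in GFP control replicate 1 and 5 to 10 in each other library. The counts below cover only the 34 that passed. In Ofd1 CRISPR against GFP control, 2 members rose, 10 fell and 22 did not pass the threshold (edgeR quasi-likelihood test, p adjusted by Benjamini-Hochberg across the 12875 genes, threshold 0.05). That is 35.3% of the tested members, and 14.9% of all tested genes were called in that comparison. In Kif3a CRISPR against GFP control, 3 rose, 10 fell and 21 did not pass. The share was 38.2% of tested members, against 20.1% of all tested genes. By direction, 6.79% of all genes rose and 8.09% fell in Ofd1 CRISPR, and 9.19% rose and 10.9% fell in Kif3a CRISPR. Scaling by library totals alone made 57.5% of all Ofd1 CRISPR calls higher, against 45.6% with TMM factors, and left 2 members higher and 7 lower. The median log2 fold change of the tested members was -0.16 in Ofd1 CRISPR and -0.17 in Kif3a CRISPR, where the median of all tested genes was 0.00 and 0.01. Summed over the 40 genes, the controls held 4502 and 4394 CPM, the Ofd1 CRISPR libraries 3823 to 4052 CPM and the Kif3a CRISPR libraries 3832 and 3886 CPM. Most of that difference came from Gnas and Gnai2, the members with the highest CPM. Gnas averaged 1227 CPM in the controls, 1014 CPM in Ofd1 CRISPR and 920 CPM in Kif3a CRISPR. Gnai2 averaged 858, 680 and 668 CPM in the same groups. Bulk RNA cannot tell fewer cells of a type from less RNA per cell.

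The 2 comparisons share the same control libraries, so their values are set side by side and not counted as separate support. Called in both were 11 members. Adcy8 and Pde2a were higher in both, where 5.31% of all tested genes were. Adcy1, Gnas, Gnai1, Gnai2, Prkar1b, Pde4b, Pde4d, Pde7b and Pde10a, 9 members, were lower in both, where 6.59% of all tested genes were. Prkacb passed in Ofd1 CRISPR, and Adcy4 and Pde1c passed in Kif3a CRISPR. At least 1 call was made for 14 members, 41.2% of those tested, and for 23% of all tested genes. Levels did not overlap between groups for 22 members in Ofd1 CRISPR (5 above and 17 below the controls), where 49.6% of all tested genes did not overlap (24.5% above, 25% below). In Kif3a CRISPR they did not overlap for 28 members (6 above, 22 below), where 66.5% of all tested genes did not (34% above, 32.4% below).

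**Figure D1:**
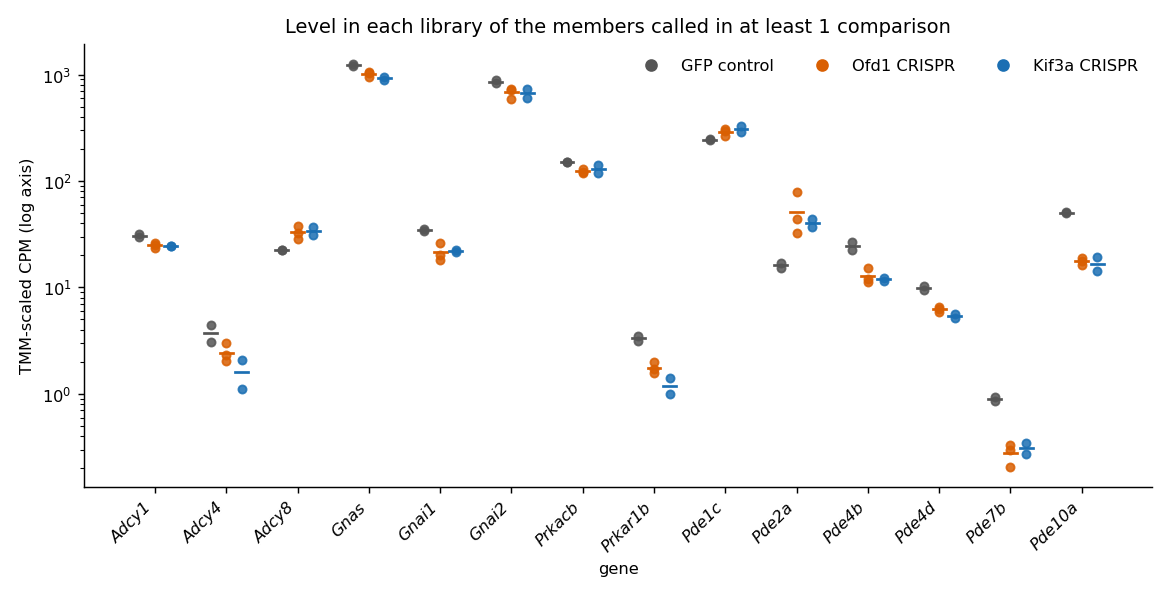
Level of the 14 members called in at least 1 comparison, in TMM-scaled CPM on a log axis; each point is 1 library, coloured by group, and the short bar is the group mean. Pde10a sits near 50 CPM in both controls and between 14.3 and 19.1 CPM in the 5 edited libraries, and Pde2a is above the controls in all 5.

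Among the adenylyl cyclases, 1 of 8 tested members rose and 1 fell in Ofd1 CRISPR, and 1 rose and 2 fell in Kif3a CRISPR. These are 25% and 37.5% of only 8 genes, where 14.9% and 20.1% of all tested genes were called. Adcy8, a cyclase stimulated by calcium and calmodulin, was 22.5 CPM in both controls, 37.7, 32.7 and 28.2 CPM in Ofd1 CRISPR, and 36.7 and 31.3 CPM in Kif3a CRISPR. Every edited library lay above both controls. The log2 fold change was 0.55 (SE 0.121, adjusted p = 0.0112) in Ofd1 CRISPR and 0.60 (SE 0.130, adjusted p = 0.00794) in Kif3a CRISPR. Adcy1, also a cyclase stimulated by calcium and calmodulin, was 29.5 and 31.9 CPM in the controls, 26.1, 24.9 and 23.6 CPM in Ofd1 CRISPR, and 24.6 and 24.3 CPM in Kif3a CRISPR. The edited libraries all lay below the controls, by log2 changes of -0.30 (SE 0.0859, adjusted p = 0.0347) and -0.33 (SE 0.0944, adjusted p = 0.0301). Adcy4, at low level, was 3.05 and 4.46 CPM in the controls, 2.02 to 2.98 CPM in Ofd1 CRISPR, and 1.12 and 2.10 CPM in Kif3a CRISPR. Its change was -1.24 in Kif3a CRISPR (SE 0.322, adjusted p = 0.0185) and -0.83 without Kif3a CRISPR replicate 1, and the change of -0.62 in Ofd1 CRISPR did not pass (adjusted p = 0.153).

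The cyclase with the highest level per exon length, Adcy6, did not pass in either comparison. Adcy6 is a calcium-inhibited cyclase, and its libraries held 147 and 150.3 CPM in the controls, 159, 148 and 135.5 CPM in Ofd1 CRISPR, and 139.6 and 147 CPM in Kif3a CRISPR. The groups overlapped, with log2 changes of -0.01 (95% interval -0.17 to 0.16) and -0.05 (95% interval -0.23 to 0.13). Adcy3, a cyclase found in neuronal primary cilia, was 50.7 and 48.2 CPM in the controls, 42.5 to 48.2 CPM in Ofd1 CRISPR, and 40.9 and 43.0 CPM in Kif3a CRISPR. The log2 changes of -0.13 (adjusted p = 0.300) and -0.24 (adjusted p = 0.0712) did not pass. In the GENCODE M21 gene models, 22.1% of Adcy3 exon bases lie opposite exons of Cenpo, and the strand used for counting is not given, so those reads cannot be told apart. Adcy5, Adcy7 and Adcy9, with control means of 32.1, 0.793 and 4.59 CPM, did not pass in either comparison.

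Of the 4 G protein alpha subunits, 3 fell in both comparisons and none rose. Of all tested genes, 6.59% were lower in both. Gnas, the stimulatory subunit, was 1253 and 1201 CPM in the controls, 953, 1036 and 1053 CPM in Ofd1 CRISPR, and 884 and 956 CPM in Kif3a CRISPR. All edited libraries lay below both controls. The log2 change was -0.28 (SE 0.0718, adjusted p = 0.0249) and -0.42 (SE 0.0792, adjusted p = 0.00369). The Gnas locus makes several transcripts from separate promoters, which a count per symbol adds together, and 13.1% of its exon bases in GENCODE M21 lie opposite those of Gm20721. Among the inhibitory subunits, Gnai1 was 34.0 and 35.3 CPM in the controls, 17.99, 20.03 and 26.1 CPM in Ofd1 CRISPR, and 22.3 and 21.7 CPM in Kif3a CRISPR. The groups were apart, and the log2 changes were -0.70 (SE 0.129, adjusted p = 0.004597) and -0.65 (SE 0.143, adjusted p = 0.00794). Gnai2 was 879.9 and 835 CPM in the controls, 589.96, 729 and 721 CPM in Ofd1 CRISPR, and 605 and 731 CPM in Kif3a CRISPR. It fell by 0.33 (SE 0.102, adjusted p = 0.0473) and 0.36 (SE 0.113, adjusted p = 0.0421) on the log2 scale, close to the threshold in both. Without Kif3a CRISPR replicate 1 the Kif3a CRISPR change was -0.22. Gnai3, the remaining inhibitory subunit, spanned 193 to 236 CPM over all libraries, with changes of -0.01 and 0.08 that did not pass.

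Of the kinase A catalytic subunits, Prkaca did not pass in either comparison, with all 7 libraries between 168 and 192 CPM and log2 changes of -0.07 and -0.13. Prkacb, the other catalytic subunit, was 150.1 and 151 CPM in the controls, 122, 119.5 and 131 CPM in Ofd1 CRISPR, and 142 and 119.9 CPM in Kif3a CRISPR. The Ofd1 CRISPR libraries lay below the controls by -0.28 (SE 0.0791, adjusted p = 0.0342), and the Kif3a CRISPR change of -0.20 did not pass (adjusted p = 0.129).

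Of the 4 regulatory subunits, which hold the kinase inactive until cyclic AMP binds, 1 fell in both comparisons and the other 3 did not pass in either. Lower in both were 6.59% of all tested genes. The one that fell was Prkar1b, the type I subunit with its highest expression in brain, at 3.15 and 3.51 CPM in the controls, 1.72, 1.56 and 2.00 CPM in Ofd1 CRISPR, and 0.993 and 1.40 CPM in Kif3a CRISPR. The Kif3a CRISPR libraries were the lowest, and no library of either group reached the controls. The log2 changes were -0.91 (SE 0.226, adjusted p = 0.0200) and -1.49 (SE 0.265, adjusted p = 0.00250), from raw counts of 23 to 70 per library. Prkar1a, the widely expressed type I subunit, was 462 and 450.4 CPM in the controls, 381, 393 and 424 CPM in Ofd1 CRISPR, and 411 and 415 CPM in Kif3a CRISPR. Its edited libraries lay below the controls, but -0.19 (adjusted p = 0.0763) and -0.14 (adjusted p = 0.197) did not pass. Prkar2b, a type II subunit, was 27.0 CPM in both controls and 23.2 to 25.6 CPM in the edited libraries, with changes of -0.17 and -0.12 that did not pass. Prkar2a, the other type II subunit, spanned 86.2 to 104 CPM, with changes of -0.16 and -0.19.

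The kinase A inhibitors, small proteins that bind the free catalytic subunit, had no call among the 2 tested. Pkig spanned 29.0 to 35.3 CPM, with changes of 0.08 and -0.00. Pkia had 5 to 21 raw counts per library, and its changes of 1.12 (SE 0.576) and 1.03 (SE 0.621) did not pass. Pkib was not tested. It had 30 counts in GFP control replicate 1 and 5 to 10 in each other library, and replicate 1 is the library with the high myeloid markers; their part in the Pkib value was not tested.

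**Figure D2:**
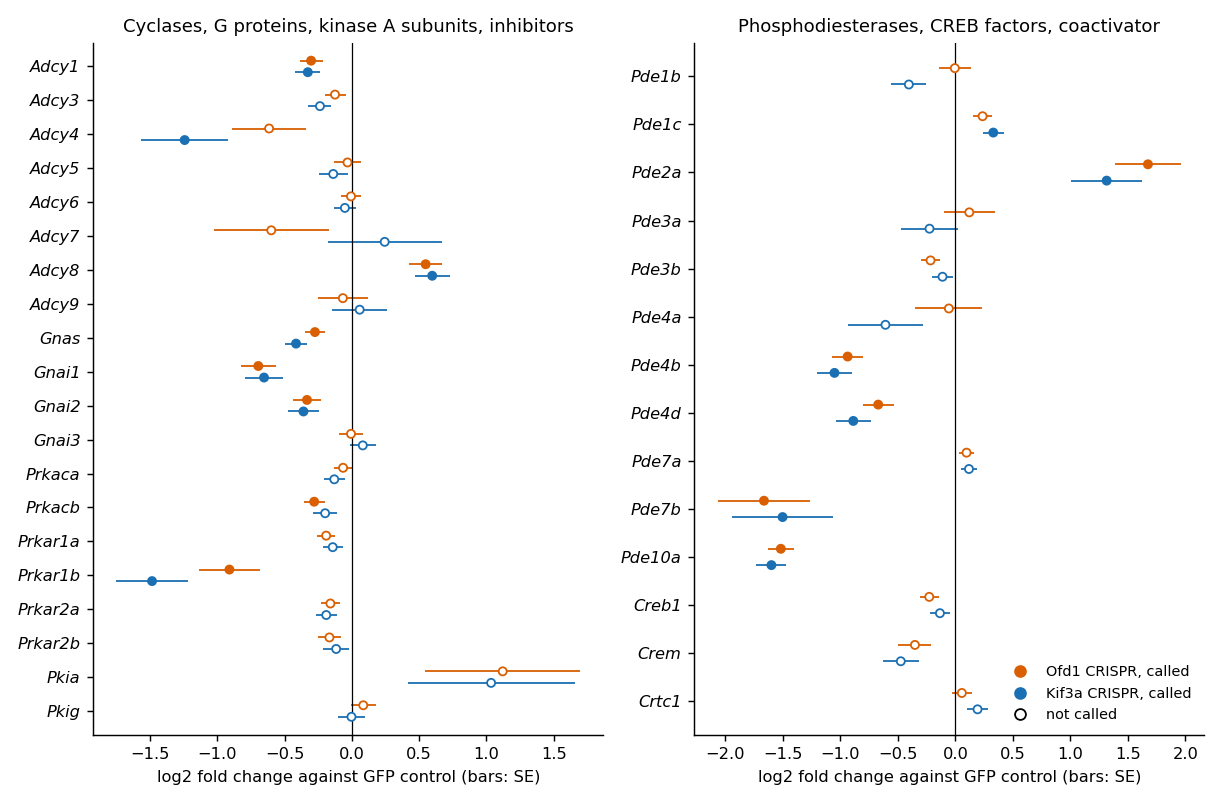
Log2 fold change of each tested member in Ofd1 CRISPR (orange) and Kif3a CRISPR (blue) against GFP control, with bars of 1 standard error; filled points passed the test and open points did not. Most points lie left of 0, and Pde10a, Pde7b and Prkar1b lie farthest left among the filled points while Pde2a lies farthest right.

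The phosphodiesterases held the widest changes: 5 of 11 tested members were called in Ofd1 CRISPR (1 higher, 4 lower) and 6 in Kif3a CRISPR (2 higher, 4 lower). These are 45.5% and 54.5% of a small role, where 14.9% and 20.1% of all tested genes were called. Pde10a, which breaks down both cyclic AMP and cyclic GMP and is best known from striatal neurons, was 50.7 and 50.1 CPM in the controls. It was 17.5, 16.1 and 19.1 CPM in Ofd1 CRISPR and 14.3 and 19.1 CPM in Kif3a CRISPR. The controls were alike and every edited library was far below them. The level was 2.86-fold lower in Ofd1 CRISPR, a log2 change of -1.52 (SE 0.115, adjusted p = 0.000125), and 3.03-fold lower in Kif3a CRISPR, a log2 change of -1.60 (SE 0.130, adjusted p = 2.23e-05).

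The cyclic AMP-specific Pde4 enzymes moved down as well where they were called. Pde4b was 22.6 and 26.7 CPM in the controls, 11.1, 12.1 and 15.3 CPM in Ofd1 CRISPR, and 11.4 and 12.3 CPM in Kif3a CRISPR. The groups did not overlap, and the log2 changes were -0.94 (SE 0.137, adjusted p = 0.00131) and -1.05 (SE 0.153, adjusted p = 0.000784). Pde4d was 9.44 and 10.4 CPM in the controls, 6.26, 5.90 and 6.53 CPM in Ofd1 CRISPR, and 5.14 and 5.61 CPM in Kif3a CRISPR. It lay below the controls in every edited library, by -0.67 (SE 0.134, adjusted p = 0.00685) and -0.89 (SE 0.150, adjusted p = 0.00186). Pde4a, at 2.59 to 7.24 CPM, did not pass, with changes of -0.06 and -0.61. Pde7b, another cyclic AMP-specific enzyme, had 17 to 19 raw counts in the controls and 4 to 8 in the edited libraries. Its log2 changes of -1.66 (SE 0.404, adjusted p = 0.0181) and -1.50 (SE 0.436, adjusted p = 0.0312) rest on those few counts.

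Pde2a, which cyclic GMP stimulates to break down cyclic AMP, had the largest rise among the members called. Its level was 17.1 and 15.3 CPM in the controls, 78.5, 32.8 and 43.5 CPM in Ofd1 CRISPR, and 43.8 and 36.8 CPM in Kif3a CRISPR. All edited libraries were above the controls, and Ofd1 CRISPR replicate 1 was far above the rest. The change was 3.19-fold, log2 1.68 (SE 0.290, adjusted p = 0.00319), in Ofd1 CRISPR and 2.49-fold, log2 1.32 (SE 0.309, adjusted p = 0.0119), in Kif3a CRISPR. Without Ofd1 CRISPR replicate 1 the Ofd1 CRISPR change was 1.24 (adjusted p = 7.87e-05). In GENCODE M21 a same-strand model, Gm45837, shares 64.3% of Pde2a exon bases. Whether the annotation used for counting held that model is not given, so how such reads were assigned is unknown.

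Pde1c, a calcium- and calmodulin-activated enzyme, was 247 and 242 CPM in the controls, 307, 263 and 295 CPM in Ofd1 CRISPR, and 328 and 286 CPM in Kif3a CRISPR. All edited libraries lay above the controls. The change of 0.33 passed in Kif3a CRISPR (SE 0.0908, adjusted p = 0.0249), and 0.24 in Ofd1 CRISPR did not (adjusted p = 0.0769). Pde1b, of the same class, was 22.2 and 24.7 CPM in the controls, 18.8 to 27.2 CPM in Ofd1 CRISPR, and 16.7 and 18.7 CPM in Kif3a CRISPR. Its Kif3a CRISPR change of -0.40 did not pass (adjusted p = 0.0846). Pde3a and Pde3b, which cyclic GMP inhibits, and Pde7a also did not pass. Pde3b was 142 and 144 CPM in the controls and 115 to 140.4 CPM in the edited libraries, and Pde7a spanned 107 to 122 CPM. Not tested for low counts were Pde1a with 2 to 10 counts per library, Pde8a with 2 to 8, and Pde8b and Pde4c with 0 or 1.

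None of the 3 CREB group genes passed with all libraries included. Creb1 was 157 and 166 CPM in the controls, 136, 131 and 147 CPM in Ofd1 CRISPR, and 159 and 136 CPM in Kif3a CRISPR. Its change of -0.23 in Ofd1 CRISPR had an adjusted p of 0.0808, and its change of -0.13 in Kif3a CRISPR an adjusted p of 0.315. Crem, which also encodes an inducible repressor that closes a feedback loop on CRE genes, was 11.1 and 10.7 CPM in the controls, 8.08, 7.62 and 9.82 CPM in Ofd1 CRISPR, and 8.47 and 7.12 CPM in Kif3a CRISPR. All edited libraries lay below the controls, and the changes of -0.35 (adjusted p = 0.121) and -0.47 (adjusted p = 0.0544) did not pass. Without Ofd1 CRISPR replicate 3, Creb1 (adjusted p = 0.0349) and Crem (adjusted p = 0.0402) passed in Ofd1 CRISPR. Without Ofd1 CRISPR replicate 1 or 3, Crem passed in Kif3a CRISPR (adjusted p = 0.0399 and 0.0357). Crtc1, a CREB coactivator, spanned 63.6 to 79.3 CPM, with changes of 0.06 and 0.19.

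Levels can be set against each other within a role only per exon length, and this order is a description without a test. In the controls Adcy6 had 21.9 CPM per kilobase, 53.0% of the summed level of the cyclases, ahead of Adcy3 at 7.92, Adcy5 at 4.46, Adcy8 at 2.76 and Adcy1 at 2.45 CPM per kilobase. In Ofd1 CRISPR Adcy8 had 4.03 ± 0.582 (SD, n = 3) and Adcy1 1.99 ± 0.0968 CPM per kilobase, so these 2 neighbours in the order lay farther apart than in the controls. Prkaca made up 81.4% of the catalytic subunit level and Prkar1a 81.4% of the regulatory subunit level, and Prkar1b made up 0.673%. Gnai2 led the G protein subunits with 227 CPM per kilobase, before Gnas with 109.7, Gnai3 with 62.8 and Gnai1 with 11.1. Among the phosphodiesterases, Pde3b (15.7), Pde7a (14.1) and Pde1c (12.2 CPM per kilobase) led the controls. The share of Pde10a in the summed phosphodiesterase level went from 6.85% in the controls to 2.28% in Ofd1 CRISPR and 2.21% in Kif3a CRISPR, and that of Pde2a from 4.601% to 14.0% and 11.2%. These shares use all annotated exons of a gene as its length. With the longest transcript instead, the leading gene of 6 of the 7 roles stayed in place, and Pde1c led the phosphodiesterases. The size of a lead depended on the length used. Over all 7 libraries, Gnai2 and Gnas had 192 and 93.7 CPM per kilobase by all exons, and 328 and 265 by the longest transcript. Prkaca and Prkacb had 71.6 and 15.2 by all exons, and 78.3 and 30.7 by the longest transcript.

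**Figure D3:**
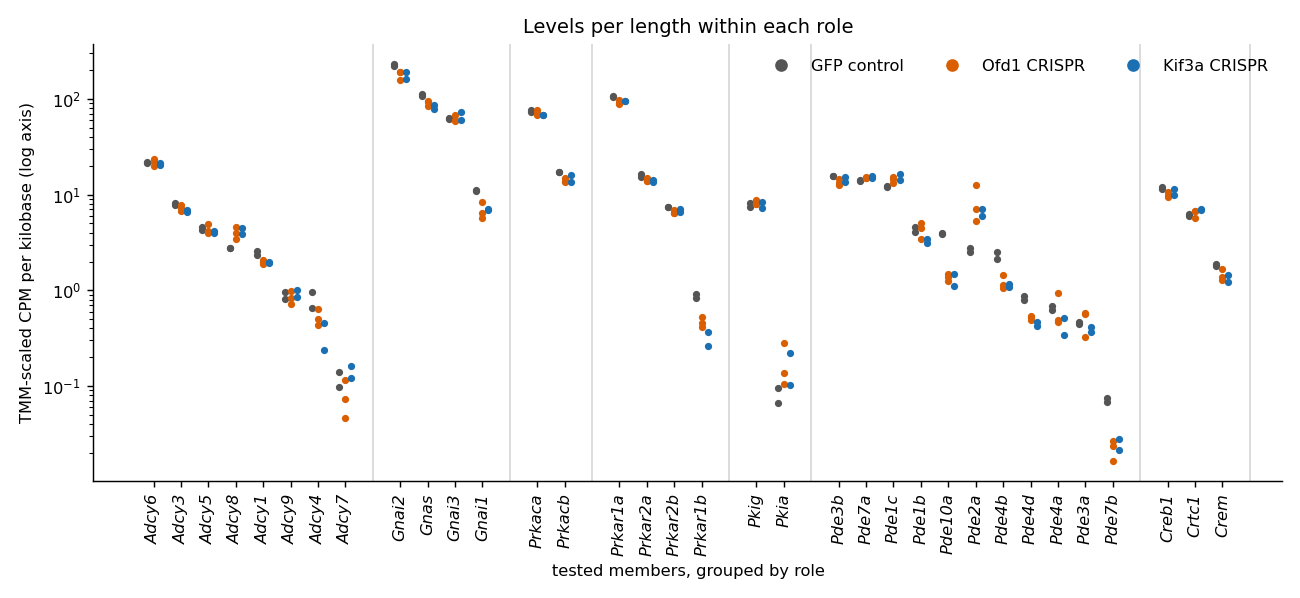
Level of the 34 tested members per kilobase of annotated exon, on a log axis, grouped by role and ordered by the control mean; each point is 1 library. Adcy6, Gnai2, Prkaca, Prkar1a and Pkig lead their roles in all groups, while Pde2a moves up and Pde10a down among the phosphodiesterases.

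Between the 2 edited groups, edgeR called no member, and DESeq2 called none either. One member, Pde1b, had an unadjusted p under 0.05: its Ofd1 CRISPR libraries were above its Kif3a CRISPR libraries by 0.40 (95% interval 0.09 to 0.71, adjusted p = 0.420). Across all tested genes 0.179% were called in this comparison, 0.171% higher and 0.00777% lower in Ofd1 CRISPR. Libraries of the 2 groups did not overlap for 5 members, 14.7% of those tested, where 23% of all tested genes did not overlap (12.5% above, 10.5% below). For 28 of the 34 members the 95% interval of the difference lay within 2-fold in either direction, so a larger difference is outside those intervals. For Pde10a the interval was -0.19 to 0.35 and for Gnas -0.02 to 0.30. Intervals that reached beyond 2-fold were those of Adcy4 (-0.05 to 1.31), Adcy7 (-1.74 to 0.06) and Prkar1b (-0.002 to 1.15). Those of Pkia (-0.99 to 1.16), Pde4a (-0.11 to 1.22) and Pde7b (-1.24 to 0.92) did so too. The Pde2a interval (-0.21 to 0.93) lay within 2-fold but includes a difference of nearly that size.

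Single libraries decided many of these calls, as the plot of adjusted p with each library left out shows. In Ofd1 CRISPR, Pde10a, Pde4b, Pde2a and Gnai1 passed whichever library was left out, and in Kif3a CRISPR Pde10a, Pde4b and Pde4d did. Pde4d lost its Ofd1 CRISPR call without GFP control replicate 2 (adjusted p = 0.0834), and Prkar1b its Kif3a CRISPR call without Kif3a CRISPR replicate 1 (adjusted p = 0.0730). Adcy8 lost its Ofd1 CRISPR call without either control library (adjusted p = 0.0813 and 0.0704) and its Kif3a CRISPR call without GFP control replicate 1 (0.0533) or Kif3a CRISPR replicate 1 (0.121). Gnas lost its Ofd1 CRISPR call without either control or without Ofd1 CRISPR replicate 1 or 2 (adjusted p from 0.0525 to 0.218), and its Kif3a CRISPR call without GFP control replicate 1 (0.0505) or Kif3a CRISPR replicate 1 (0.0605). The Kif3a CRISPR call of Gnai1 ended without either Kif3a CRISPR library (0.0917 and 0.0630). That of Pde2a ended without GFP control replicate 2 (0.0562), Kif3a CRISPR replicate 1 (0.142) or replicate 2 (0.0517), and that of Adcy4 without GFP control replicate 2 (0.150) or Kif3a CRISPR replicate 1 (0.225). The Ofd1 CRISPR call ended for Adcy1 without any library other than Ofd1 CRISPR replicate 1 (adjusted p from 0.0519 to 0.291) and for Gnai2 without any other than Ofd1 CRISPR replicate 3 (0.0546 to 0.253). It ended for Pde7b without either control or either Kif3a CRISPR library (0.0611 to 0.130), for Prkacb without either control or Ofd1 CRISPR replicate 1 or 2 (0.0659 to 0.188), and for Prkar1b without either control or Ofd1 CRISPR replicate 2 (0.0591 to 0.152). The Kif3a CRISPR calls of Adcy1 (0.0875 to 0.218) and Pde7b (0.120 to 0.205) ended without either control or either Kif3a CRISPR library. That of Gnai2 ended without either control, Ofd1 CRISPR replicate 2 or Kif3a CRISPR replicate 1 (0.0527 to 0.332), and that of Pde1c without either control or Kif3a CRISPR replicate 1 (0.116 to 0.216). Leaving out a library also added calls. Without Ofd1 CRISPR replicate 3, Prkar1a passed in Ofd1 CRISPR (0.0212), without replicate 2 Pde1c did (0.0440), and without Ofd1 CRISPR replicate 1 or 3 Adcy3 passed in Kif3a CRISPR (0.0491 and 0.0442). Other settings ended calls near the threshold. DESeq2 did not call Adcy1 (adjusted p = 0.0821 in Ofd1 CRISPR and 0.0778 in Kif3a CRISPR) or, in Ofd1 CRISPR, Prkar1b (0.113), but it called Pde1c (0.0450) and Prkar1a (0.0334) there. Scaling by library totals alone ended the Ofd1 CRISPR calls of Adcy1 (0.0554), Gnai2 (0.0609) and Prkacb (0.0552) and the Kif3a CRISPR call of Gnai2 (0.0519). Testing every gene without a filter ended both calls of Pde7b (0.0510 and 0.0988), and a fit of the 2 groups alone ended the Ofd1 CRISPR call of Adcy1 (0.0506). Pde7b had no adjusted p with DESeq2, and the filter of at least 1 CPM in 2 libraries left it out. Neither of these settings therefore called Pde7b in either comparison.

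Without GFP control replicate 1, the library with the high myeloid markers, 1 member rose and 4 fell in Ofd1 CRISPR, and 1 rose and 6 fell in Kif3a CRISPR. Those that still fell were Gnai1, Pde4b, Pde4d and Pde10a in both comparisons, with Adcy4 and Prkar1b added in Kif3a CRISPR, and Pde2a still rose in both. Calls over all genes dropped too in the same fits, which had 1 control library left. Fewer member calls in these fits are therefore not read as a result about the members. The cause of the drop over all genes was not tested. Without GFP control replicate 2 the member counts were 1 higher and 4 lower in Ofd1 CRISPR, and 1 higher and 7 lower in Kif3a CRISPR. Without Ofd1 CRISPR replicate 2, 3 members rose and 5 fell in Ofd1 CRISPR, and calls over all genes went from 1915 to 1402. Leaving out GFP control replicate 2 or Kif3a CRISPR replicate 1 also lowered the calls over all genes, and left 1 library in a group. A group left with 1 library is assumed to vary like the others.

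**Figure D4:**
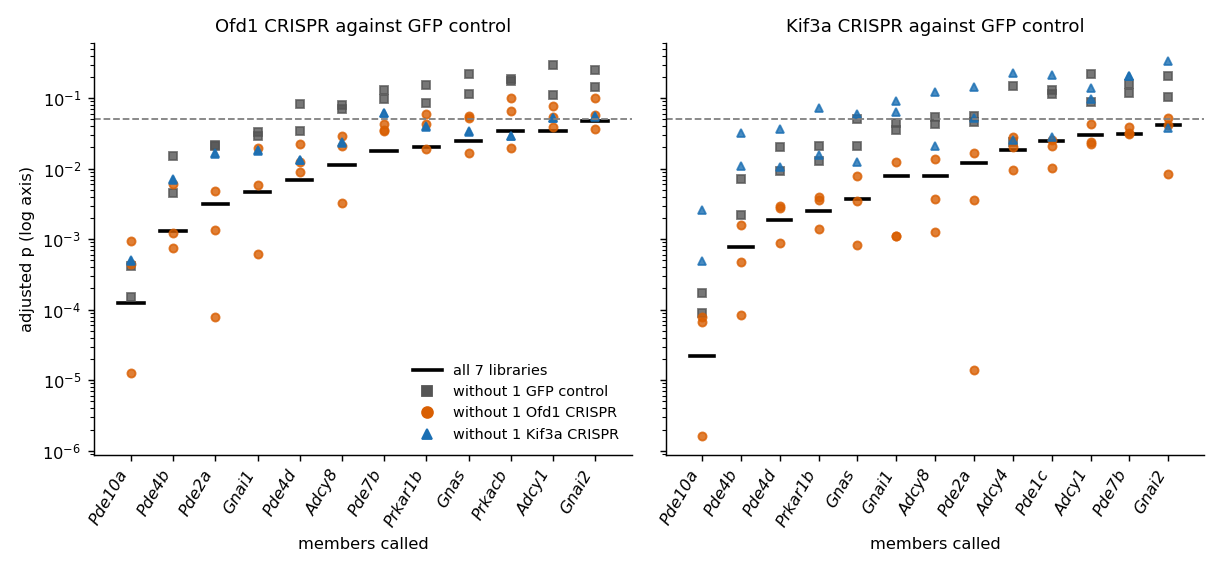
Adjusted p (log axis) of each member called, in Ofd1 CRISPR (left) and Kif3a CRISPR (right) against GFP control; the black bar uses all 7 libraries and each point leaves 1 library out, with the dashed line at 0.05. Pde10a and Pde4b stay under the line in both panels whichever library is left out.

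Genes known to be induced through CREB formed a separate list of 33, of which 24 were tested and 4 (Crem, Pde4b, Pde4d and Pde3b) are also members. Many of them respond to calcium and growth factor signals too. In Ofd1 CRISPR 11 fell and 1 rose, where 8.09% of all tested genes fell and 6.79% rose. In Kif3a CRISPR 14 fell and 2 rose, where 10.9% fell and 9.19% rose. The list had median log2 changes of -0.31 and -0.71 where the median of all tested genes was 0.00 and 0.01. Nr4a1, an orphan nuclear receptor and immediate early gene, was 106 and 94.2 CPM in the controls, 22.0, 21.2 and 31.5 CPM in Ofd1 CRISPR, and 13.5 and 15.2 CPM in Kif3a CRISPR. All edited libraries were far below the controls, by -2.00 (SE 0.136, adjusted p = 7.59e-05) and -2.80 (SE 0.164, adjusted p = 8.42e-06). Its paralogue Nr4a3 fell too (log2 changes of -1.69 and -2.31), as did the insulin receptor substrate Irs2 (-0.96 and -1.245) and the transcription repressor Nfil3 (-0.94 and -1.30). Cited2, a transcription coregulator, was the gene that rose in both, by 0.60 and 0.67, and Id2, an inhibitor of helix-loop-helix factors, passed in Kif3a CRISPR with 0.30; both are named after their values were seen. Fos, an immediate early gene also named after its values were seen, was uneven. It was 20.6 and 13.3 CPM in the controls and 33.2, 9.24 and 21.3 CPM in Ofd1 CRISPR. The Kif3a CRISPR libraries held 8.90 and 6.09 CPM. The Fos change did not pass in either comparison.

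Promoters of the members were set beside those of the CREB-induced list, to show which carry the letters of a CRE. RefSeq promoters of build GRCm38.p6 were searched over the 250 bases before each annotated start, for the full element TGACGTCA and for the short elements TGACG and CGTCA, which are the same 5 letters read on either strand; the full element contains both. Of the 40 members, 32 had an entry, with 75 promoters. One of these promoters, 1.333%, held the full element, where 1.546% of all 32851 promoters did, and 16 (21.33%) held at least 1 short element, where 17.77% of all did. In the CREB-induced list, 5 of 36 promoters (13.89%) held the full element and 21 (58.33%) a short element. That list was chosen for induction through CREB, which acts on such elements, so its share is a description and not a test. Below are the 1 member promoter with the full element (Prkar1a), the Pde4b promoter with a short element, the Pde10a promoter with neither, and that of Nr4a1, whose RNA fell most among the tested CREB-induced genes. The full and short elements are in capitals.
Prkar1a, chr11:109650699-109650948, plus strand: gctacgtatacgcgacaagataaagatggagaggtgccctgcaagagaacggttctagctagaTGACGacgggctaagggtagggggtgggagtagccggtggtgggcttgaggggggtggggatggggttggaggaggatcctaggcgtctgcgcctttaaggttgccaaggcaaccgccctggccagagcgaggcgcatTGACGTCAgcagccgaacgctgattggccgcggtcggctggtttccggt
Pde4b, chr4:102421305-102421554, plus strand: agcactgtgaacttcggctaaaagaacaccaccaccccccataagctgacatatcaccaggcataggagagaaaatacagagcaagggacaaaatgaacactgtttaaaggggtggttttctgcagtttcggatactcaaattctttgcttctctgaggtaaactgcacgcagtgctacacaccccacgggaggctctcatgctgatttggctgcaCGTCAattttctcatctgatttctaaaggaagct
Pde10a, chr17:8801495-8801744, plus strand: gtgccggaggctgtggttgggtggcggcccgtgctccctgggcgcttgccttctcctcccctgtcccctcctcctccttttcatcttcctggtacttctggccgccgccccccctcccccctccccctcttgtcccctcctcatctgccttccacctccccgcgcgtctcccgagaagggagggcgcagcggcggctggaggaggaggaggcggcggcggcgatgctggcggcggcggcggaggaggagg
Nr4a1, chr15:101266596-101266845, plus strand: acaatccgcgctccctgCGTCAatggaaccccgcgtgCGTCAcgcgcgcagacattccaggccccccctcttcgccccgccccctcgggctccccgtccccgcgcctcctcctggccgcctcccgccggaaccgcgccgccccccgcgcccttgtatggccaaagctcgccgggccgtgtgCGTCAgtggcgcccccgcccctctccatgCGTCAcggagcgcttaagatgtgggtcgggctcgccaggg
The Prkar1a promoter carries the full element, and Prkar1a RNA did not pass the test in either comparison. The Nr4a1 promoter carries 4 short elements and the Pde4b promoter 1, and both RNAs fell. The Pde10a promoter carries none in this window, and Pde10a had the smallest adjusted p of the members in both comparisons. Pde4b and Pde10a each have other annotated starts, and a match of letters is not a measured binding site.

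Receptors that act on the G protein subunits moved in both directions. Of 21 tested receptors and accessory proteins coupled to Gs or Gi, 5 rose and 5 fell in Ofd1 CRISPR, and 4 rose and 6 fell in Kif3a CRISPR. That is 47.6% of the list in both comparisons, where 14.9% and 20.1% of all tested genes were called. Adcyap1r1, the receptor for the neuropeptide PACAP, was 205 and 208 CPM in the controls, 319, 293 and 265 CPM in Ofd1 CRISPR, and 330.4 and 307 CPM in Kif3a CRISPR. All edited libraries were above the controls, by 0.50 (SE 0.0825, adjusted p = 0.00248) and 0.63 (SE 0.0893, adjusted p = 0.000691). Vipr1, a receptor for the related peptide VIP, rose from 3.74 CPM on average in the controls to 14.5 CPM in Ofd1 CRISPR and 17.7 CPM in Kif3a CRISPR, log2 changes of 1.96 and 2.25. Gabbr2, a subunit of the Gi-coupled GABA receptor, rose by 1.62 and 1.76. Ramp2, an accessory protein of the calcitonin receptor-like receptor, was 41.0 and 45.8 CPM in the controls, 17.6, 19.0 and 21.7 CPM in Ofd1 CRISPR, and 13.1 and 17.6 CPM in Kif3a CRISPR. It fell by 1.16 (SE 0.124, adjusted p = 0.000290) and 1.51 (SE 0.141, adjusted p = 6.44e-05). Named after their values were seen, the others that passed in both were Sstr2 (0.41 and 0.34), Calcrl (-0.79 and -0.50), Ramp1 (-0.91 and -1.31), Gpr3 (-1.16 and -1.43) and Grm4 (-0.96 and -1.49). Crhr1 passed in Ofd1 CRISPR with 0.63 and Lpar1 in Kif3a CRISPR with -0.87. Gpr161, the ciliary receptor known for raising cyclic AMP and restraining Hedgehog signalling, was 23.0 and 24.7 CPM in the controls and 24.3 to 29.6 CPM in the edited libraries. Its changes of 0.21 (adjusted p = 0.152) and 0.09 (adjusted p = 0.590) did not pass.

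**Figure D5:**
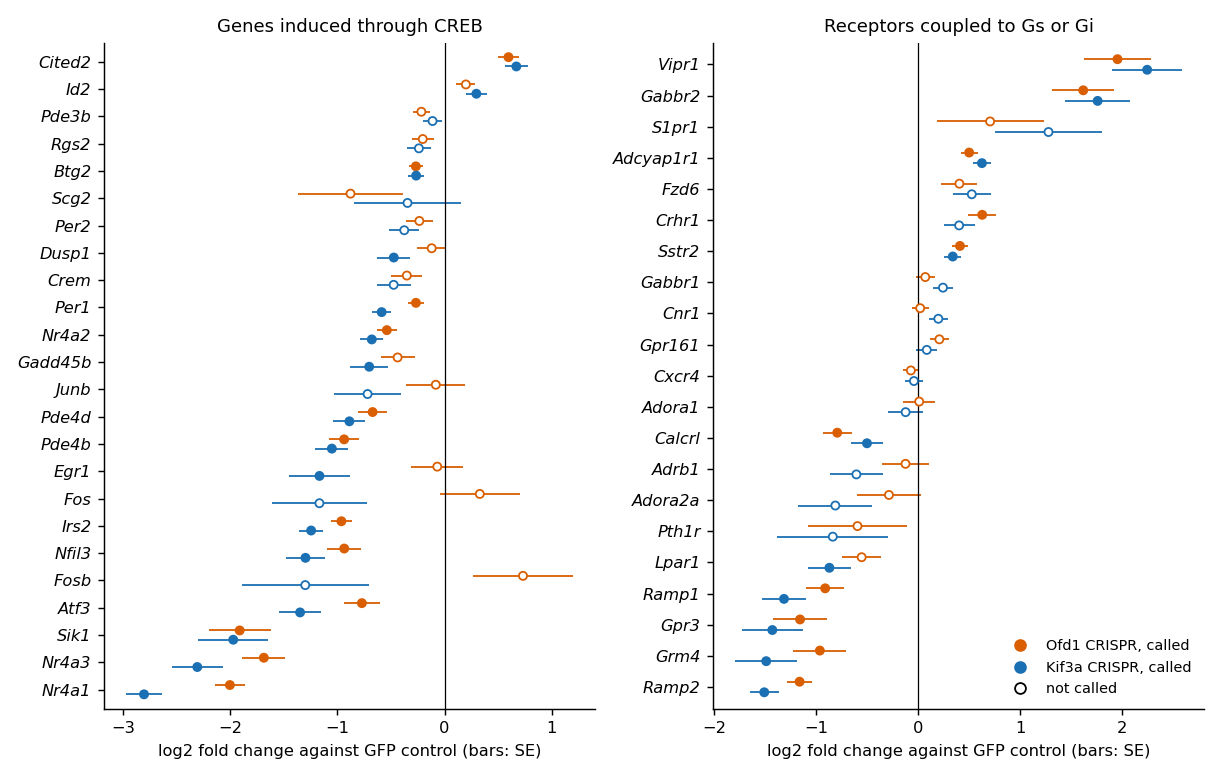
Log2 fold change of the tested genes induced through CREB (left) and the tested receptors coupled to Gs or Gi (right) in Ofd1 CRISPR (orange) and Kif3a CRISPR (blue) against GFP control, with bars of 1 standard error; filled points passed the test. Nr4a1, Nr4a3 and Sik1 lie farthest left in the first panel, and the receptors split between Vipr1 and Gabbr2 on the right and Ramp2, Grm4 and Gpr3 on the left.

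Markers of cell state moved alongside these changes. Granule neuron differentiation markers summed to 730.1 and 733 CPM in the controls, 903 to 1007 CPM in Ofd1 CRISPR and 972 to 1082 CPM in Kif3a CRISPR. Of 11 tested markers, 4 were higher and 1 lower in each comparison, while Stmn2 and Gabra6 had no count in any library. Over all tested genes, 6.79% rose and 8.09% fell in Ofd1 CRISPR, and 9.19% rose and 10.9% fell in Kif3a CRISPR. Oligodendrocyte lineage markers summed to 271 and 285 CPM in the controls, 96.0 to 183 CPM in Ofd1 CRISPR and 103 to 145 CPM in Kif3a CRISPR, while Sox10 and Mog had no count in any library. Of the 4 tested markers of this lineage, 1 fell in Ofd1 CRISPR and 2 fell in Kif3a CRISPR, and none was called higher. In Ofd1 CRISPR their log2 changes ran from -1.02 to 0.177, with 1 above 0. In Kif3a CRISPR they ran from -1.26 to 0.282, with 2 above 0. Astrocyte markers summed to 469 to 485 CPM in the controls and 492 to 646 CPM in the edited libraries, with Aqp4 and Gjb6 at 0, and 1 of 4 tested markers rose in each comparison. Endothelial and fibroblast markers summed to under 3 CPM in every library. The part of these markers in the changes of Pde10a, Pde2a and the other members was not tested.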

How the data were processed

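SMB21 cells infected with lentiCRISPR virus against GFP (2 libraries), Ofd1 (3) or Kif3a (2) were profiled with stranded mRNA libraries, read as single-end reads of 75 bases on 1 sequencer run, per the labels' protocols. The deposited table holds raw counts per gene symbol, as whole numbers without normalization. Per the submitters' processing notes, the tools include STAR and DESeq2 and the build is mm9, with no version. Which program counted reads, with what annotation and strand setting, is not given in the sources used here. The series text counts 3 GFP replicates, and the 2 used here are those with labels and columns.

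Counts were tested with edgeR 4.0.16 (R 4.3.3): filterByExpr on the groups, TMM factors, 1 quasi-likelihood fit with group means over all 7 libraries (4 residual degrees of freedom), and Benjamini-Hochberg adjustment over all 12875 tested genes at 0.05. The common biological coefficient of variation was 7.43%. Tested genes held 99.96% of counts. Standard errors and 95% intervals come from the F statistic. Levels are TMM-scaled CPM; levels per kilobase use GENCODE M21 exon lengths, and promoters come from RefSeq GRCm38.p6, so no gene coordinates of the files' own build are given. A count of 3, the most that an observed 0 allows, equals 0.130 to 0.167 CPM and covers counting error only. The scripts were tested on simulated data. Replicates of a group differed beyond counting noise (chi-square per degree of freedom 4.00 to 13.9), so none was merged.

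The members were given, and they and the other lists were chosen with earlier results of these data known. Named are all members called, 11 core genes whatever their result, the remaining members by level or range, and up to 4 genes with the smallest adjusted p from each other list of the pathway, with Gpr161. Alternatives were RLE factors, library totals, DESeq2 1.42.0, no filter, a stricter filter, only the 2 groups compared, the replicate number as a block, and each library left out. Those for the CREB-induced and receptor lists were added after seeing the data. Drd1 and Mtap2 of the lists were matched by synonym.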

Additional observations from a re-analysis of the deposited data

How the results depend on the processing

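The counts of members that rose or fell stayed within 1.5 times under every alternative run except the omission of single libraries. With each library left out, members higher ranged from 1 to 3 and lower from 4 to 13 in Ofd1 CRISPR against GFP control, and from 0 to 3 and 3 to 13 in Kif3a CRISPR against GFP control. All genes called ranged from 664 to 2831 and from 686 to 3119, and from 0 to 50 between the edited groups. CREB-induced genes higher ranged from 1 to 1 and lower from 7 to 14 in Ofd1 CRISPR, from 1 to 2 and 9 to 18 in Kif3a CRISPR, and 0 to 2 were higher between the edited groups; receptors higher ranged from 2 to 5 and lower from 3 to 5, and from 3 to 4 and 2 to 6. RLE factors left 1 CREB-induced gene higher in Kif3a CRISPR in place of 2. Between the edited groups, DESeq2 called 86 genes and no filter 80 in place of 23, with 1 and 4 CREB-induced genes higher in place of 0. Library totals alone moved the share of higher calls from 45.6% to 57.5% in Ofd1 CRISPR and from 45.8% to 54.3% in Kif3a CRISPR, with a median shift of all genes to 0.04.

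Whether the replicate numbers pair the libraries is not settled. Deviations of same-numbered libraries correlated at 0.199 and 0.190 for GFP control with Ofd1 CRISPR, -0.00857 for GFP control with Kif3a CRISPR, and 0.234 and 0.152 for the edited groups. Between replicates 1 and 2, differently numbered libraries gave -0.199 and -0.190, 0.00857, and -0.234 and -0.152. Ofd1 CRISPR replicate 3 gave -0.0276 and 0.0276 with the controls and -0.104 and 0.104 with Kif3a CRISPR. Deviations in a group of 2 libraries mirror each other, so these values are not separate evidence. With the number as a block, 3 members rose and 15 fell in Ofd1 CRISPR, and 3 rose and 13 fell in Kif3a CRISPR. Members that passed with the block but not without it, all libraries kept, included Adcy4 (adjusted p = 0.0289), Pde1c (0.0399), Prkar1a (0.0212), Creb1 (0.0150) and Crem (0.0250) in Ofd1 CRISPR, and Adcy3 (0.0364) and Crem (0.0208) in Kif3a CRISPR. All genes called in Ofd1 CRISPR went from 1915 to 3496 and between the edited groups from 23 to 191, and CREB-induced genes higher were 2 in Ofd1 CRISPR and 4 between the edited groups. Changes near 0 changed sign: Adcy6 in Ofd1 CRISPR was 0.0272 with library totals and 0.0514 with the block, and between the edited groups the block gave Adcy8 0.0514, Gnai2 -0.0193, Pde4b -0.0331 and Pde7b 0.0145. Leaving out 1 library gave Adcy6 -0.0639 to 0.0515 in Ofd1 CRISPR. Between the edited groups it gave Adcy1 -0.0106 to 0.0597, Adcy6 -0.0124 to 0.104, Adcy8 -0.160 to 0.0686, Gnai1 -0.213 to 0.0711, Gnai2 -0.108 to 0.172, Prkacb -0.194 to 0.0428, Pde1c -0.185 to 0.00469, Pde2a -0.0771 to 0.599, Pde4b -0.0313 to 0.212, Pde7b -0.307 to 0.0370, Pde10a -0.127 to 0.306 and Creb1 -0.196 to 0.0195. The cause was not tested for any of these. No change against GFP control that passed the test turned its direction under any alternative run. Crem in Kif3a CRISPR passed under 5 of 14 alternatives. Depth limits Pde7b, Pkia and the 6 members not tested.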

Other observations

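Of 17 tested A-kinase anchoring proteins, which hold the kinase at set places in the cell, 1 (5.88%) rose in Ofd1 CRISPR and 2 (11.8%) in Kif3a CRISPR, and none fell. Of all tested genes, 14.9% and 20.1% were called. Ezr, which links membrane and actin and also anchors kinase A, was 419 and 395 CPM in the controls, 499, 495 and 479.6 CPM in Ofd1 CRISPR, and 524 and 488 CPM in Kif3a CRISPR. The log2 changes were 0.27 (SE 0.0669, adjusted p = 0.0199) and 0.31 (SE 0.0728, adjusted p = 0.0111). Akap13 passed in Kif3a CRISPR with 0.48 (adjusted p = 0.00634), and 0.28 in Ofd1 CRISPR did not pass (adjusted p = 0.0669).

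Of 25 other tested G protein, cyclase, phosphodiesterase, effector and CREB genes, 3 fell in Ofd1 CRISPR and 5 in Kif3a CRISPR, and none rose. These shares, 12% and 20%, are near the 14.9% and 20.1% called over all tested genes. Gnao1, the neuronal inhibitory alpha subunit, was 292 and 317 CPM in the controls, 181, 218 and 199 CPM in Ofd1 CRISPR, and 179.5 and 195 CPM in Kif3a CRISPR, and fell by 0.61 (adjusted p = 0.000914) and 0.70 (adjusted p = 0.000431) on the log2 scale. Sik1, a kinase that keeps CREB coactivators out of the nucleus and is itself a CREB-induced gene, was 5.31 and 4.96 CPM in the controls and 0.986 to 2.11 CPM in the edited libraries, with changes of -1.91 and -1.97. Pde4dip, a Golgi and centrosome protein that binds Pde4d, fell by 0.36 (adjusted p = 0.0234) and 0.52 (adjusted p = 0.00412). Pde6d, a carrier of prenylated proteins to the cilium, passed in Kif3a CRISPR with -0.34 (adjusted p = 0.0191), as did Gnaz with -0.35 (adjusted p = 0.0357), which is named after its value was seen.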
